A study of Homo sapiens with 36 samples.

Results

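The genes described here were those whose RNA stayed lower in A549 lung cancer cells long after interleukin-1β (IL-1β) had been taken away. Levels are given in CPM, a gene's reads scaled to a fixed total of reads on genes per library, and d is the mean log2(CPM + 0.5) of the 3 IL-1β libraries minus that of the 3 untreated libraries of the same collection. The genes were chosen by these values of d: a gene was taken when its mean CPM over the 36 libraries was at least 1, d was -1 or lower at days 15 and 21 of exposure, and d was -0.7 or lower at days 15 and 30 posttreatment. Of 63677 genes listed, 15384 had a mean CPM of at least 1 and 82 met the rule, among them 76 protein-coding genes, 3 long noncoding RNA genes, 2 processed pseudogenes and 1 identifier without an annotation match. All 82 also passed the filter on low counts.

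A549 is an established human lung adenocarcinoma line. The treated libraries came from cells kept in IL-1β (1 ng/ml) for 6, 15 or 21 days, and from cells kept without it for 6, 15 or 30 days after 21 days of exposure. Untreated A549 cells were collected beside each of them, and each of the 12 groups had 3 replicates. All groups came from 1 cell line in medium with 10% serum, with no allele or other agent added, so the values hold for this line alone. A lower level in these bulk libraries cannot tell fewer cells with the RNA from less RNA in each cell.

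The liver and gut share a network of transcription factors with some lung adenocarcinomas, HNF4A among them, that acts on genes of secreted plasma proteins such as the fibrinogen chains. WNT signalling switches on its own brakes, AXIN2, RNF43 and NKD1 among them, and in epithelial cells claudins, desmosomes and the apical actin belt hold neighbours together. During epithelial-to-mesenchymal transition, repressors of the SNAI and ZEB families bind E-boxes in promoters of epithelial genes.

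Promoter sequences are shown first because the rule did not use them. Whether CpG content goes with the expression level or the size of change that the rule selects was not tested. RefSeq promoters of 300 bases, 250 before and 50 after the start, were matched for 59 of the 82 genes and for 11641 of all tested genes (GRCh38.p14). The first entry of each gene symbol was taken, and whether A549 cells use that start was not tested. The ratio of observed to expected CpG dinucleotides had a median of 0.55 over the 59 promoters, against 0.74 over 155 promoters of other genes lower at days 15 and 21 by the same cuts and 0.83 over all 11641. It was under 0.6 in 31 of 59 promoters (52.5%), in 62 of 155 (40.0%) and in 20.8% of all promoters, and the median GC content was 60.0%, 68.3% and 65.0%.

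The promoters of the fibrinogen genes FGB (chr4:154562730-154563029, plus strand) and FGA (chr4:154590693-154590992, minus strand), which encode chains of the clotting protein of plasma, were among those poorest in CpG. The FGB promoter held 0 CpG and 32.7% GC, and that of FGA held 2 CpG and 47.0% GC. They are printed to show this composition, and capitals in FGA mark a forkhead match on the opposite strand (GCAAACA):
FGB: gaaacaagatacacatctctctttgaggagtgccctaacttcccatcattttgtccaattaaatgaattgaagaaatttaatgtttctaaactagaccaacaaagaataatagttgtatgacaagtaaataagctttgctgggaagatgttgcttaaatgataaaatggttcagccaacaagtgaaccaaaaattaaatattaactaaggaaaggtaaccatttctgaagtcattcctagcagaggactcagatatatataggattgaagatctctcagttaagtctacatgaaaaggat
FGA: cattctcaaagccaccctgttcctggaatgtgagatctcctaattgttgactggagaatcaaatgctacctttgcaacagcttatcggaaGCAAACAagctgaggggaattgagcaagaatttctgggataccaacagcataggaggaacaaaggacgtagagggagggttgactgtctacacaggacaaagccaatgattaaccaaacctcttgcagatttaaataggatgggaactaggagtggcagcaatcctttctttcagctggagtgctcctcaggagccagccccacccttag

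The FGB promoter was 1 of 2 without any CpG, the other being that of PDE3A. Those of CLDN2, VAV3, BAAT and INSL4 held 1 each. The E-box CACCTG, the sequence bound by SNAI and ZEB repressors, was searched on both strands and was in 15 of 59 promoters (25.4%), 28.4% of the other repressed genes and 18.5% of all.

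**Figure D1:**
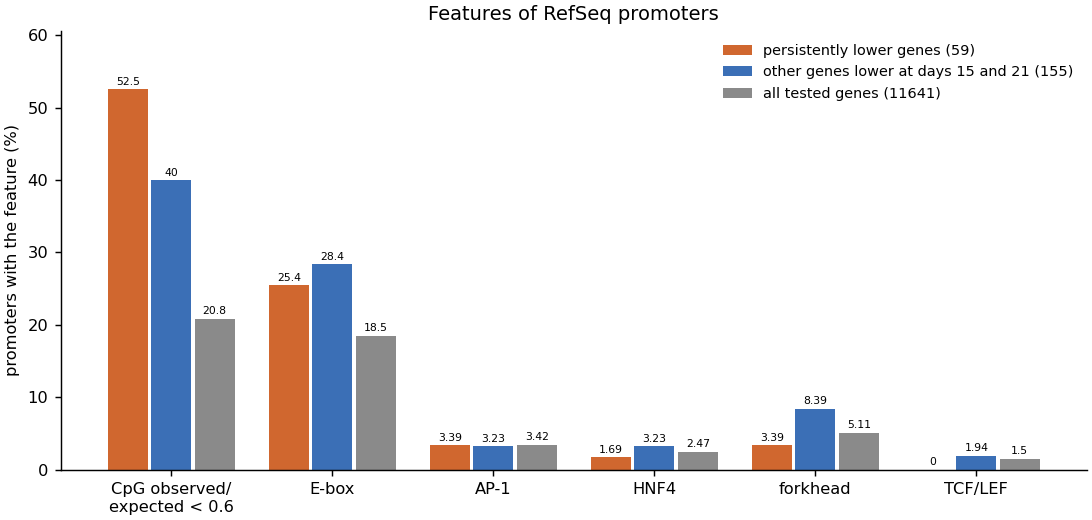
Share (%) of 300-base RefSeq promoters (y axis) with a CpG ratio under 0.6 or with each motif searched (x axis), for the 59 persistently lower genes with a promoter entry, 155 other repressed genes and all 11641 tested genes. A CpG ratio under 0.6 was found in 52.5%, 40.0% and 20.8% of these sets.

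Other letters were at or below the share of all promoters. The AP-1 site TGACTCA was in 3.39% against 3.42%, the HNF4 core site CAAAGTC in 1.69% against 2.47%, the forkhead sites TGTTTAC or TGTTTGC in 3.39% against 5.11%, and the TCF/LEF site CTTTGAT in 0 of 59 against 1.5%. HNF4A (chr20:44355449-44355748, plus strand) and the collagen genes COL4A3 (chr2:227164374-227164673, plus strand) and COL4A4 (chr2:227164156-227164455, minus strand) each held the E-box, in capitals in the printed promoters. COL4A3 and COL4A4 are transcribed away from each other, their windows overlap, and the capitals mark the same 6 bases read from either strand:
HNF4A: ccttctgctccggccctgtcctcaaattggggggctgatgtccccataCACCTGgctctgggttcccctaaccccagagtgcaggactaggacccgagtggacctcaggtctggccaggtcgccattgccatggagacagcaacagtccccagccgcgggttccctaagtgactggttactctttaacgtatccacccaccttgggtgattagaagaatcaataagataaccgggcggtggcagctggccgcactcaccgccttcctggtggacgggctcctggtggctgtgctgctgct
COL4A3: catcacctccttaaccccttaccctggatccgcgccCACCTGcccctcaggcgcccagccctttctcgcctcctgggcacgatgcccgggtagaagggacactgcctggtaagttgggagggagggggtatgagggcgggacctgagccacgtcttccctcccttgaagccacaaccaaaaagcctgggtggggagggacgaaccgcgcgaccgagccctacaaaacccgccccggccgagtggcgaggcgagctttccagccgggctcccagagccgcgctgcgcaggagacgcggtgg
COL4A4: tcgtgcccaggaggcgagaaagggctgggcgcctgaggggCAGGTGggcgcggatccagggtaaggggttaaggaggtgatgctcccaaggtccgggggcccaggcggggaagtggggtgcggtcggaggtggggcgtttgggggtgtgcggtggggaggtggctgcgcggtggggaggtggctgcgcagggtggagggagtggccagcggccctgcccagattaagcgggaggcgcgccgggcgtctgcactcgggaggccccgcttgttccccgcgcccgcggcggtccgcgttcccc

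Library depth ran from 9116032 to 23570026 counts on genes. In 11 libraries, 6 untreated and 5 with IL-1β, mitochondrial genes took 11.8% to 24.6% of counts, against 5.61% to 7.75% in the other 25, and the time course, the share kept and the counts of calls are also given without these 11. Epithelial markers summed to 3711 to 9785 CPM in untreated and 1821 to 7219 CPM in IL-1β libraries. Markers of immune cells reached at most 17.8 CPM with 2 of 6 at 0 throughout, those of fibroblasts 4.45 CPM and those of endothelial cells 0.44 CPM.

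The difference from untreated cells was already present at day 6 of exposure and shrank only in part after withdrawal. The median d of the 82 genes was -1.61, -2.06 and -2.07 at days 6, 15 and 21 of exposure, then -1.58, -1.19 and -1.28 at days 6, 15 and 30 posttreatment. Values of days 15 and 21 of exposure and days 15 and 30 posttreatment chose the genes and are given as a description only. The median over all genes with a mean CPM of at least 1 stayed between -0.11 and 0.19. Another 282 genes met the cuts at days 15 and 21 of exposure but not those after withdrawal. Their median d went from -1.43 at day 21 to -0.71, -0.22 and -0.13 after withdrawal. Its smaller size at days 15 and 30 posttreatment follows from that choice and is a description only. In the 25 libraries with a low mitochondrial share, the medians of the 82 genes were -1.65, -2.0, -2.07, -1.85, -1.25 and -1.44, and d was below 0 for all 82 at every collection. Those at days 6 and 15 posttreatment rest on 1 untreated and 2 IL-1β libraries each.

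**Figure D2:**
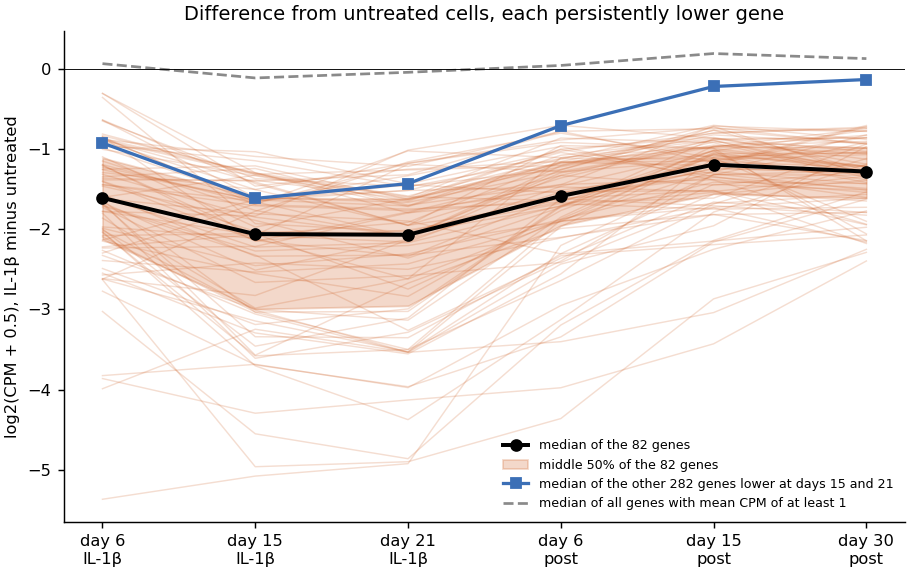
Difference in log2(CPM + 0.5) between IL-1β and untreated cells (y axis) at the 6 collections (x axis), 1 thin line per gene for the 82 persistently lower genes, with their median (black) and middle 50% (shading), the median of 282 other repressed genes (blue) and of all genes with a mean CPM of at least 1 (dashed). The black line lies at -2.07 at day 21 of exposure and -1.28 at day 30 posttreatment. There the blue line, of genes that did not meet the posttreatment cuts, lies at -0.13.

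The genes differed in how much of the day-21 difference remained. At day 30 posttreatment d was a median of 60.3% of that at day 21, with 30 genes under 50% and 9 over 100%. KRT4, a keratin of stratified epithelium, kept the least (25.8%), followed by CPLX2 (27.1%), which regulates vesicle release, and VAV3 (27.3%), an exchange factor for small GTPases. The 0.5 added to CPM shrinks d where IL-1β cells fall below it, so the shares kept by genes at such levels depend on it. By d, 9 genes had a larger difference at day 30 than at day 21. They were TM4SF20, BAAT, F5, RND1, SHROOM3, ENSG00000261685, OLFML3, PPARGC1A and ERBB3. Of these 9, PPARGC1A and ERBB3 had a smaller fold difference between group mean CPM at day 30 than at day 21, and the others a larger one. In the 25 libraries of low mitochondrial share the median kept was 68.6%, with 18 genes under 50% and 18 over 100%, among them 8 of these 9 (not PPARGC1A, 96.7%). There KRT8P5 kept the least (27.6%), then KRT4 (29.2%) and VAV3 (29.5%), and CPLX2 kept 35.1%. The libraries of the 2 groups did not overlap for 82 of 82 genes at day 21 (15.8% of all tested genes had the IL-1β libraries lower without overlap), 73 at day 15 posttreatment (2.46%) and 56 at day 30 posttreatment (3.67%), all collections that chose the genes.

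Nearest to the limits of the rule were TSPAN13 (d of -0.70 at day 15 posttreatment), AXIN2 (-0.70 at day 30) and ERBB3 (-1.01 at day 21). Just outside lay DCDC2 and LYPD6, each at -0.99 at day 15 of exposure, and CFD at -0.69 at day 15 posttreatment.

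Because each replicate can be left out of the choice, the persistence could be read in libraries that had no part in it. Chosen without replicate 1, 61 genes met the rule, and in replicate 1 their median d at day 30 posttreatment was -1.64, below 0 in 61 of 61 (51.2% of all genes with a mean CPM of at least 1 were below 0). Without replicate 2, 88 genes met it, and in replicate 2 the median was -0.79, below 0 in 76 of 88 (30.8% of all genes). Without replicate 3, 82 genes met it, and in replicate 3 the median was -1.26, below 0 in 82 of 82 (48.7% of all genes). Fewer genes reached the rule's own cut of -0.7 in the left-out replicate. At days 15 and 30 posttreatment it was met by 61 and 61 of 61 genes in replicate 1 and 69 and 51 of 88 in replicate 2. In replicate 3 it was met by 49 and 71 of 82, where 2.08% to 6.74% of all genes met it over these checks. Replicate 2 at day 30 was the weakest of these checks, followed by replicate 3 at day 15. Both libraries of replicate 2 at day 30 were among the 11 with a high mitochondrial share, whose part in this was not tested.

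**Figure D3:**
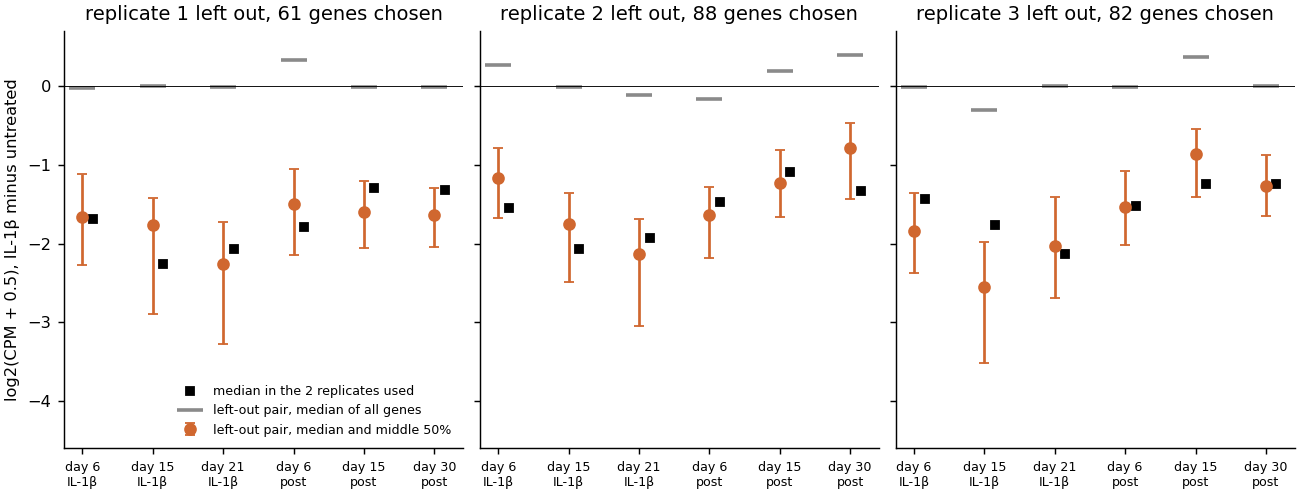
Difference in log2(CPM + 0.5) (y axis) at the 6 collections (x axis) for genes chosen with the same rule from 2 replicates and read in the left-out one (orange, median and middle 50%), beside the median in the 2 replicates used (black) and the left-out median of all genes with a mean CPM of at least 1 (grey). Left-out medians at day 30 posttreatment were -1.64, -0.79 and -1.26.

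The rule did not use d at day 6 of exposure or day 6 posttreatment, but those libraries counted in its mean CPM. Genes near a mean CPM of 1 could thus pass in part through them. Both collections were tested with edgeR's quasi-likelihood test over 19180 genes. A call needed a Benjamini-Hochberg adjusted p under 0.05 and a fold change over 2. At day 6 of exposure 62 of the 82 genes were called lower and 0 higher, where 1.25% of all tested genes were called lower and 1.52% higher. At day 6 posttreatment 63 of 82 were called lower and 0 higher, where 0.725% of all were lower and 1.08% higher. The 3 IL-1β libraries all lay below the 3 untreated ones for 78 of the 82 at day 6 of exposure (7.56% of all tested genes) and for 73 at day 6 posttreatment (3.74%). Of the 82, 52 were called at both, 10 at day 6 of exposure alone, 11 at day 6 posttreatment alone and 9 at neither. The other 282 repressed genes, which did not meet the posttreatment cuts, were called lower in 91 cases (32.3%) at day 6 of exposure. At day 6 posttreatment they were called lower in 43 (15.2%). The median log2 fold change of the 82 was -1.80 and -1.90, beside -0.02 and -0.00 over all genes.

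Leaving libraries out changed these counts. They are given without the share of all tested genes called in each fit, so a loss particular to the 82 genes cannot be read from them. With the 11 high-mitochondrial libraries left out, 65 and 61 of the 82 were called, the second from 1 untreated and 2 IL-1β libraries of that collection, where the lone untreated library is assumed to vary as the other groups do. Without replicate 1 the counts were 26 and 11, and without replicate 2, 49 and 41, while all 82 log2 fold changes stayed below 0. A fit of the 6 libraries of day 6 of exposure alone called 64 of 82, whereas that of the 6 libraries of day 6 posttreatment alone called 1 of 79, INHBB, although 77 of 79 had an unadjusted p under 0.05.

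**Figure D4:**
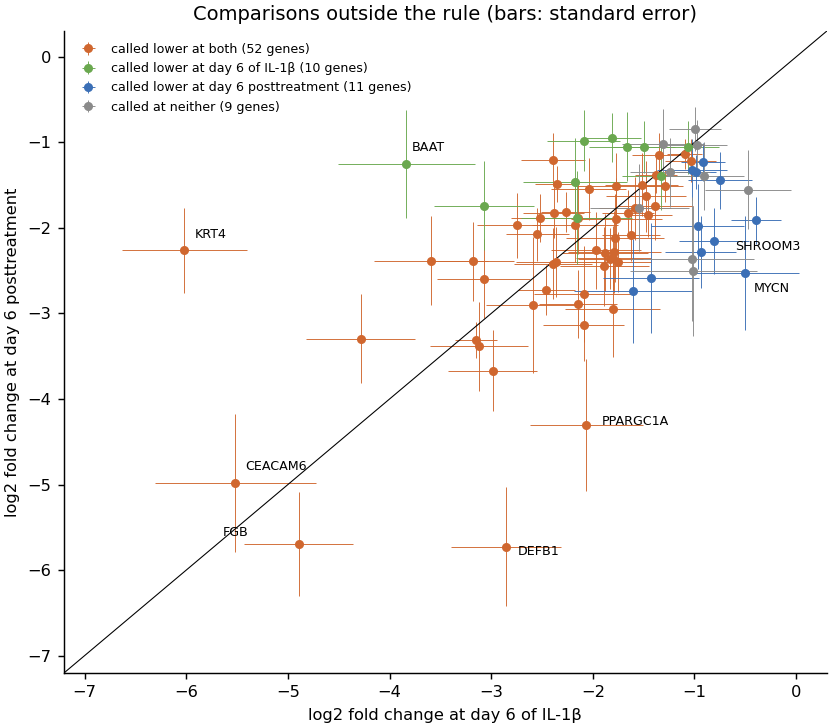
Log2 fold change of IL-1β against untreated cells at day 6 of exposure (x axis) and at day 6 posttreatment (y axis) for the 82 genes, with standard errors as bars, colours for the calls (52 at both, 10 and 11 at 1 only, 9 at neither) and the line of equal values. KRT4 stands above the line and DEFB1 and PPARGC1A below it.

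Of the genes on the list of endoderm lineage factors, HNF4A, the metabolic coactivator PPARGC1A and TFCP2L1 were among the 82. HNF4A, a nuclear receptor of liver and gut, had 28.8, 22.7 and 26.2 CPM in untreated cells and 6.00, 6.42 and 5.87 CPM in IL-1β cells at day 6 of exposure. At day 6 posttreatment it had 7.79, 4.59 and 23.2 CPM in untreated cells and 2.93, 1.29 and 5.12 CPM in IL-1β cells. The first comparison had no overlap, whereas in the second the highest IL-1β library lay above the lowest untreated one. HNF4A was called lower in both (log2 fold change -2.18, SE 0.42, adjusted p = 0.0012 and -1.96, SE 0.43, adjusted p = 0.0076 by edgeR).

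PPARGC1A, a coactivator of mitochondrial biogenesis and fasting metabolism, had 1.76, 2.83 and 3.37 CPM in untreated cells and 0, 0.0924 and 0.312 CPM in IL-1β cells at day 6 posttreatment. The IL-1β cells held 6 reads in all, and the log2 fold change was -4.31 (SE 0.77, adjusted p = 0.000936 by edgeR). TFCP2L1, a factor of ductal epithelium, was called lower in both comparisons (-2.04 and -1.54). Of 18 tested genes on the list of endoderm lineage factors, 8 were lower at day 6 of exposure and 7 at day 6 posttreatment, and 0 were higher. The list's median log2 fold change was -0.95 and -0.67, beside -0.02 and -0.00 over all tested genes, which stand beside the medians of the other lists too. FOXA1 and HHEX were lower at both without meeting the rule, while NR5A2, lower at day 6 of exposure, had d of 0.00 at day 30 posttreatment.

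Genes of plasma proteins and coagulation came next by role. FGB (chr4:155484163-155493959 on GRCh37), the fibrinogen β chain, had 14.5, 14.1 and 13.7 CPM in untreated cells and 0.642, 0.535 and 0.357 CPM in IL-1β cells at day 6 of exposure. At day 6 posttreatment it had 8.67, 10.1 and 12.4 CPM in untreated cells and 0, 0.185 and 0.437 CPM in IL-1β cells, a log2 fold change of -5.70 (SE 0.61, adjusted p = 1.53e-06 by edgeR) resting on 9 reads in the IL-1β cells. At day 30 posttreatment it had 14.5, 26.9 and 13.3 CPM in untreated cells and 2.49, 3.34 and 2.91 CPM in IL-1β cells, so that no collection showed overlap. FGA, the α chain, lies 10319 bases from FGB on GRCh37.

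FGA had 13.4, 16.4 and 29.1 CPM in untreated cells and 1.41, 0.554 and 2.81 CPM in IL-1β cells at day 6 posttreatment and 28.7, 31.8 and 37.4 CPM in untreated cells and 9.15, 8.41 and 13.7 CPM in IL-1β cells at day 30. The groups were apart at both, and FGA was called lower at day 6 posttreatment (log2 fold change -3.67, SE 0.47, adjusted p = 1.95e-05 by edgeR). FGG, the γ chain, had too low a mean CPM (0.73) for the rule and was also called lower at both tested collections (log2 fold change -4.57 and -4.96). APOH, a plasma protein that binds phospholipids, had 5.59, 5.96 and 7.94 CPM in untreated cells and 0.880, 1.11 and 1.37 CPM in IL-1β cells at day 6 posttreatment and was called lower (-2.60, SE 0.46, adjusted p = 0.000847 by edgeR). FGL1, a fibrinogen-like hepatocyte secretory protein, was called lower in both (-3.12 and -3.39).

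F5, coagulation factor V, differed from these in its untreated level. It had 7.12, 6.70 and 6.62 CPM in untreated cells and 1.86, 0.993 and 0.816 CPM in IL-1β cells at day 6 of exposure and 0.439, 0.688 and 0.877 CPM in untreated cells and 0.0587, 0.0924 and 0.125 CPM in IL-1β cells at day 6 posttreatment. Untreated F5 was thus lower at the later collection, and it was the only one of the 82 called between these untreated groups (log2 fold change -3.25, SE 0.50, adjusted p = 0.0108 by edgeR). In that comparison 0.00521% of all tested genes were called lower. The mean CPM of F5 over the 36 libraries (1.24) was near the cut of 1. It rested in part on the untreated libraries of day 6 (mean 6.82 CPM), so this call is tied to how F5 was chosen. IL-1β cells at day 6 posttreatment held 4 F5 reads. Of 16 tested genes on the coagulation list, 8 were lower and 1 higher at day 6 of exposure, and 6 were lower and 1 higher at day 6 posttreatment. The higher gene was F3, tissue factor, in both, and the list's medians were -2.02 and -1.14.

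Among secreted and surface products of airway and gut epithelium was the largest decrease of the 82 at day 6 posttreatment by log2 fold change, that of DEFB1. DEFB1, an epithelial antimicrobial peptide, had 38.2, 18.5 and 39.4 CPM in untreated cells and 5.78, 5.04 and 3.06 CPM in IL-1β cells at day 6 of exposure and 10.4, 8.49 and 33.5 CPM in untreated cells and 0.0587, 0 and 0.874 CPM in IL-1β cells at day 6 posttreatment. The groups did not overlap at either, and the log2 fold changes were -2.86 (SE 0.54) and -5.73 (SE 0.70). Their difference missed the threshold (-2.87, SE 0.87, adjusted p = 0.358 by edgeR). CEACAM6, a cell-surface adhesion protein, had 5.70, 5.66 and 9.05 CPM in untreated cells and 0.117, 0 and 0.499 CPM in IL-1β cells at day 6 posttreatment, again without overlap (-4.98, SE 0.81, adjusted p = 0.000348 by edgeR).

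AGR2, a disulfide isomerase needed for mucin folding, had 83.5, 79.9 and 166 CPM in untreated cells and 15.3, 12.8 and 44.1 CPM in IL-1β cells at day 6 posttreatment and was called lower (-2.26, SE 0.45, adjusted p = 0.00306 by edgeR). Complement C5 was called lower at both collections (-2.75 and -1.97). The gel-forming mucin MUC5B had 655, 630.1 and 165 CPM in untreated cells and 301, 180.0 and 41.2 CPM in IL-1β cells at day 6 of exposure, where the groups overlapped and it missed the threshold. It was called lower at day 6 posttreatment (-2.73, SE 0.61, adjusted p = 0.00839 by edgeR). On the list of 23 secreted defence genes and mucins tested, 5 were lower and 3 higher at day 6 of exposure, and 7 were lower and 0 higher at day 6 posttreatment. The 3 higher genes, LCN2, C3 and CFB, are acute-phase and complement proteins, and the list's medians were -0.88 and -1.01.

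**Figure D5:**
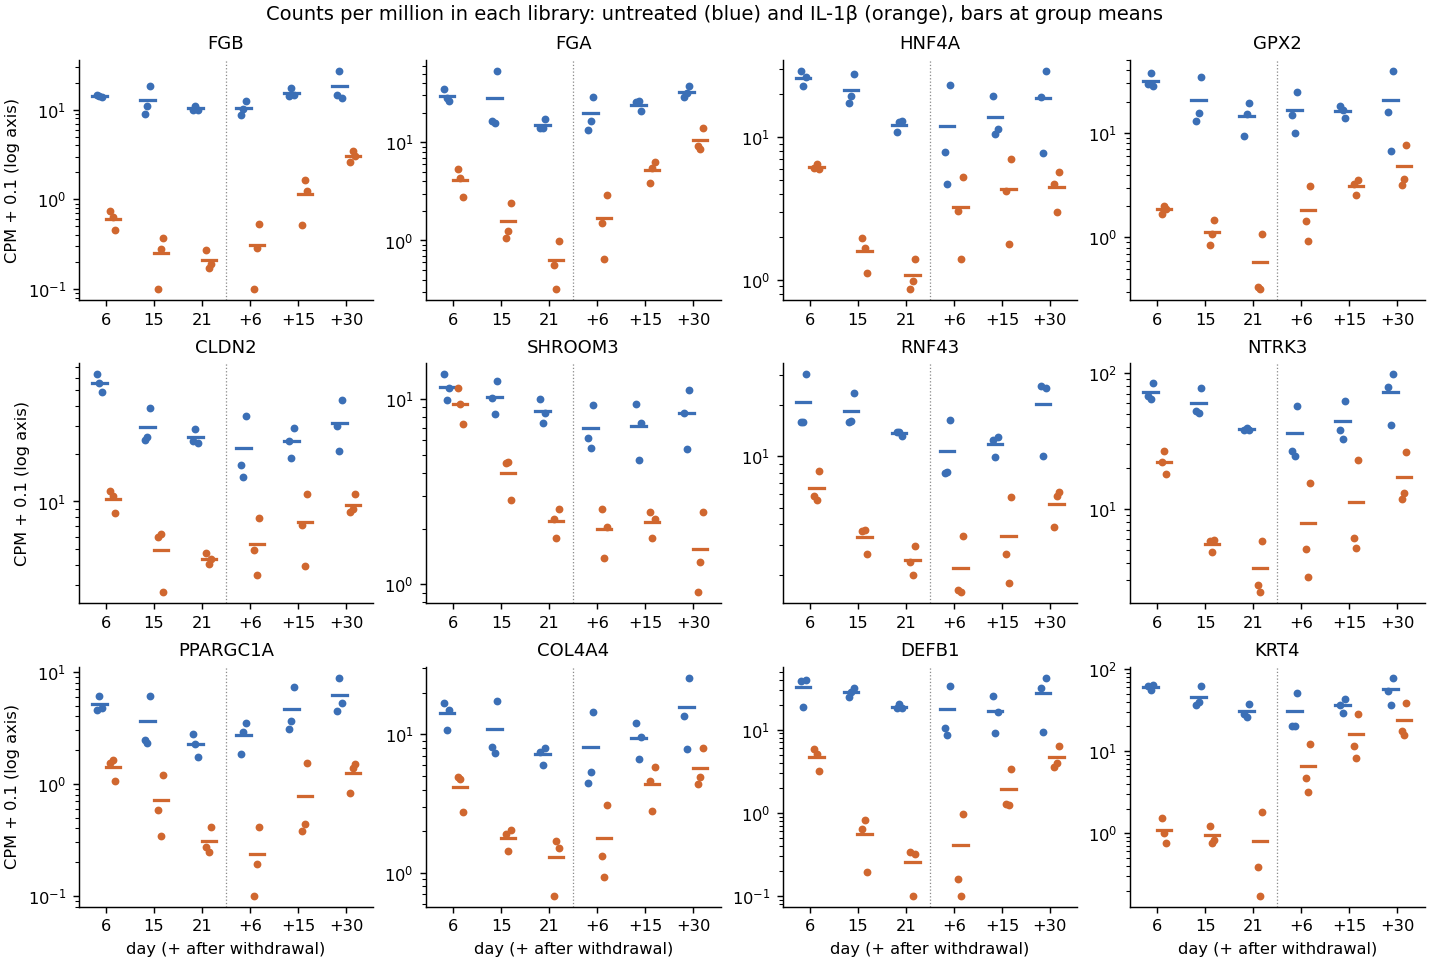
CPM + 0.1 on a log axis (y) in each library of 12 of the genes, by day of exposure or day after withdrawal (+, x axis), untreated in blue and IL-1β in orange, with bars at the means of 3 libraries. FGB and DEFB1 IL-1β points lie below the untreated points throughout, SHROOM3 points overlap at day 6 of exposure, and KRT4 IL-1β points lie under 2 during exposure and above 3 afterwards.

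Of the junction and cell shape genes, CLDN2, COBL, DSP and SHROOM3 were among the 82. CLDN2, a claudin that forms cation pores in tight junctions, had 62.8, 55.5 and 48.4 CPM in untreated cells and 11.5, 10.8 and 8.41 CPM in IL-1β cells at day 6 of exposure and 16.9, 14.1 and 34.1 CPM in untreated cells and 4.87, 3.33 and 7.80 CPM in IL-1β cells at day 6 posttreatment. It was lower without overlap and called at both (-2.54 and -2.08, SE 0.31 for each). COBL, an actin nucleator of microvilli, was called lower at both (-1.65 and -1.83). Desmoplakin (DSP), which anchors keratin at desmosomes, was called at day 6 of exposure (-1.07, adjusted p = 0.0401) but not at day 6 posttreatment (-1.06, adjusted p = 0.0602, both by edgeR).

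SHROOM3, which drives apical constriction through myosin, had the log2 fold change nearest to 0 of the 82 at day 6 of exposure, with RAP1GAP2 as small by d (-0.30 for both). It had 13.4, 9.76 and 11.4 CPM in untreated cells and 11.3, 9.32 and 7.24 CPM in IL-1β cells then, with overlap (log2 fold change -0.40, SE 0.25, adjusted p = 0.66 by edgeR). At day 6 posttreatment it had 6.03, 5.35 and 9.19 CPM in untreated cells and 2.46, 1.29 and 1.94 CPM in IL-1β cells, and at day 30, 8.33, 5.29 and 11.1 CPM in untreated cells and 0.805, 1.22 and 2.36 CPM in IL-1β cells, in both cases without overlap. The log2 fold change at day 6 posttreatment was -1.91 (SE 0.27, adjusted p = 7.8e-05 by edgeR), and the difference of the responses missed the threshold (-1.51, SE 0.37, adjusted p = 0.0948). Of 37 tested junction and polarity genes 6 were lower at each collection, with 2 higher at day 6 of exposure and 0 at day 6 posttreatment (medians -0.40 and -0.30). E-cadherin (CDH1), lower at both (-1.10 and -1.29), lay outside the rule with d of -0.57 and -0.52 at days 15 and 30 posttreatment.

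Among WNT feedback genes RNF43, a ubiquitin ligase that removes WNT receptors, had 15.9, 15.9 and 30.4 CPM in untreated cells and 5.78, 5.42 and 8.16 CPM in IL-1β cells at day 6 of exposure and 7.90, 8.03 and 16.3 CPM in untreated cells and 1.53, 1.48 and 3.31 CPM in IL-1β cells at day 6 posttreatment. It was called lower at both (-1.75, SE 0.33, and -2.40, SE 0.35, adjusted p = 0.000108 by edgeR). AXIN2, a scaffold that promotes β-catenin breakdown, was also called at both (-1.58 and -1.77). NKD1, which restrains Dishevelled, was called at day 6 posttreatment only (-0.97 and -1.98), as was the planar polarity gene PRICKLE2 (-0.92 and -1.23). Exons of RNF43 and AXIN2 overlap other genes on the same strand over 68.4% and 25.3% of their bases, and those of PRICKLE2 one on the opposite strand over 25.3%. Of 18 tested genes on this list 5 and 6 were lower and 0 higher, with medians of -0.61 and -0.48.

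In the activin and BMP family INHBB, the βB subunit of activin and inhibin, had 168, 144 and 173 CPM in untreated cells and 19.9, 21.3 and 17.0 CPM in IL-1β cells at day 6 of exposure. It had 123, 105 and 173 CPM in untreated cells and 13.1, 11.7 and 17.2 CPM in IL-1β cells at day 6 posttreatment and 154, 105 and 206 CPM in untreated cells and 44.6, 41.3 and 73.6 CPM in IL-1β cells at day 30. The groups were apart throughout, with log2 fold changes of -3.15 and -3.31 (SE 0.21, adjusted p = 3.14e-11 by edgeR). BMP4, a secreted ligand, was called at day 6 posttreatment only (-0.75 and -1.44), and its receptor BMPR1B at neither (-1.0 and -0.84). Of 33 tested genes of the BMP, Notch and Hedgehog list 2 and 3 were lower and 0 higher, with medians of -0.17 and -0.06.

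NTRK3, the receptor tyrosine kinase for neurotrophin-3, had 26.9, 24.5 and 56.9 CPM in untreated cells and 4.99, 3.05 and 15.4 CPM in IL-1β cells at day 6 posttreatment and 78.6, 41.8 and 98.1 CPM in untreated cells and 11.9, 12.97 and 26.3 CPM in IL-1β cells at day 30. No IL-1β library reached an untreated one, and it was called lower at day 6 posttreatment (-2.28, SE 0.47, adjusted p = 0.00439 by edgeR). ERBB3, a receptor with weak kinase activity that pairs with other ERBB receptors, was called at day 6 of exposure only (-2.09 and -0.98). They were the only calls at day 6 of exposure among 20 tested receptor tyrosine kinases, and at day 6 posttreatment NTRK3 and FGFR2 were called (medians of the list -0.09 and -0.24).

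COL4A3 and COL4A4, collagen IV chains of specialised basement membranes, lie head to head with 171 bases between them on GRCh37 (chr2). COL4A3 had 3.29, 3.67 and 10.3 CPM in untreated cells and 0.939, 0.647 and 2.50 CPM in IL-1β cells at day 6 posttreatment, and COL4A4 had 4.39, 5.28 and 14.5 CPM in untreated cells and 1.23, 0.832 and 3.00 CPM in IL-1β cells. Every IL-1β library lay below every untreated one, and both genes were called lower (COL4A3 -2.12, SE 0.51, and COL4A4 -2.29, SE 0.45). Of the 17 tested basement membrane genes these 2 were the lower ones at both collections, and 3 were higher at each (medians 0.18 and 0.27). COL4A5, another collagen IV chain, was higher at day 6 posttreatment (1.61), and LAMB3, a laminin chain, at both (2.73 and 1.71).

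Metabolic genes of liver and gut were also among the 82. GPX2, a glutathione peroxidase of gut epithelium, had 29.3, 37.2 and 28.4 CPM in untreated cells and 1.57, 1.91 and 1.78 CPM in IL-1β cells at day 6 of exposure and 14.7, 9.94 and 24.6 CPM in untreated cells and 1.35, 0.832 and 3.00 CPM in IL-1β cells at day 6 posttreatment. It was lower without overlap at both (-4.28, SE 0.53, and -3.30, SE 0.52, adjusted p = 0.000237 by edgeR). HGD, which breaks down a product of tyrosine, was called at both (-1.80 and -2.95). BAAT, which conjugates bile acids, had 3.29, 2.83 and 7.56 CPM in untreated cells and 0.285, 0 and 0.612 CPM in IL-1β cells at day 6 of exposure but 1.86, 1.15 and 2.54 CPM in untreated cells and 0.704, 0.924 and 0.812 CPM in IL-1β cells at day 6 posttreatment, where it was not called (-1.25, SE 0.63, adjusted p = 0.555 by edgeR). Its d was -1.90 at day 30 posttreatment.

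PDK4, which holds back pyruvate oxidation, and SLC27A2, which imports and activates fatty acids, were called at day 6 of exposure only (at day 6 posttreatment -1.88, adjusted p = 0.0609, and -1.05, adjusted p = 0.0604, by edgeR). The neuronal-type glucose transporter SLC2A3 and its near copy SLC2A14 were called at both (SLC2A3 -2.51 and -1.88, SLC2A14 -2.38 and -1.82). The copies are similar enough that reads could be shared between them, so SLC2A14 is uncertain. They were the only calls among 9 tested glucose transporters (medians -0.19 and -0.27). Of 31 tested redox genes 6 and 4 were lower, and 1 was higher at day 6 of exposure (medians -0.39 and -0.33). Of 24 lipid genes 2 and 1 were lower and 0 higher (medians -0.12 and -0.38).

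In the difference of responses between the 2 tested collections, 12 of the 82 genes had an unadjusted p under 0.05. Only KRT4 was called. It had 62.3, 55.0 and 64.0 CPM in untreated cells and 1.43, 0.917 and 0.663 CPM in IL-1β cells at day 6 of exposure, 20.4, 20.3 and 50.2 CPM in untreated cells and 4.58, 3.05 and 12.1 CPM in IL-1β cells at day 6 posttreatment and 54.6, 35.8 and 78.4 CPM in untreated cells and 17.6, 15.7 and 38.1 CPM in IL-1β cells at day 30. The IL-1β libraries were apart from the untreated ones at the first 2 of these and overlapped them at day 30. The log2 fold change went from -6.02 (SE 0.61) to -2.26 (SE 0.50), a difference of 3.76 (SE 0.75, adjusted p = 0.0157 by edgeR), where 0.073% of all genes were called higher and 0.136% lower. The call was lost without replicate 1 and without replicate 2. The fit without the 11 high-mitochondrial libraries, with 1 untreated library at day 6 posttreatment, cannot decide it.

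The processed pseudogenes KRT8P3 and KRT8P5 were lower at both collections (KRT8P3 -2.35 and -1.49, KRT8P5 -2.39 and -1.20). They are near copies of KRT8, a keratin of simple epithelium, so that reads could be shared with it, and both are uncertain. KRT8 had d of -1.92 at day 21 and -0.49 at day 30 posttreatment and did not meet the rule. The list of 7 tested keratins did not hold KRT4, which was called lower at both. Of these 7, 2 were lower and 3 higher at day 6 of exposure, and 1 was lower and 2 higher at day 6 posttreatment. The higher ones included KRT81 and KRT86 at both, and the medians were 0.33 and 0.18.

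CACNA1D, an L-type calcium channel subunit, IQGAP2, a scaffold of the actin cortex, and the noncoding RNA gene ENSG00000229425 were the most even over the 6 collections. CACNA1D had 7.33, 5.81 and 7.50 CPM in untreated cells and 3.14, 2.44 and 2.40 CPM in IL-1β cells at day 6 of exposure and 4.17, 3.98 and 5.68 CPM in untreated cells and 1.47, 1.20 and 1.31 CPM in IL-1β cells at day 6 posttreatment. Its d stayed between -1.22 and -1.64 over the 6 collections, and it was called at both (-1.45 and -1.85). IQGAP2 was called at both (-1.48 and -1.63), and ENSG00000229425 at neither. PDE3A, which breaks down cyclic nucleotides, was called at both as well (-3.18 and -2.39).

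MYCN and RAP1GAP2 stood with SHROOM3 as the genes with the highest log2 fold changes at day 6 of exposure. MYCN, a MYC-family transcription factor, had 7.12, 3.50 and 5.75 CPM in untreated cells and 4.07, 5.04 and 3.11 CPM in IL-1β cells then, with overlap (-0.50), and 1.21, 1.30 and 4.62 CPM in untreated cells and 0.352, 0 and 0.874 CPM in IL-1β cells at day 6 posttreatment, where it was called lower (-2.53, SE 0.67, adjusted p = 0.0326 by edgeR). RAP1GAP2, which switches off the GTPase RAP1, was called at neither (-0.47 and -1.55). TM4SF20, a tetraspan membrane protein, was called at day 6 of exposure only (-3.07 and -1.74), and TSPAN13, a tetraspanin next to AGR2 (7274 bases between them on GRCh37), at both (-1.03 and -1.21).

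Untreated cells did not hold these genes constant over the course of the culture. Relative to untreated cells at day 6, the median log2 level of the 82 genes in untreated cells was -0.28 at day 15, -0.52 at day 21, -0.62, -0.57 and -0.07 at days 6, 15 and 30 posttreatment. In IL-1β cells it was -1.61, -2.31 and -2.48 at days 6, 15 and 21 of exposure and -2.20, -1.83 and -1.43 posttreatment. Between the untreated groups of day 6 and day 6 posttreatment, the median log2 fold change was -0.03 over all tested genes and -0.46 over the other 282 repressed genes. Of the 82, 79 had a log2 fold change below 0 (median -0.53). Only F5 was called, where 0.00521% of all tested genes were called lower. Its place among the 82 rests in part on its untreated level at day 6. An unadjusted p under 0.05 was found for 28 of the 82. Without the 11 high-mitochondrial libraries the median log2 fold change of the 82 was -0.26. It came from 2 untreated libraries at day 6 and 1 at day 6 posttreatment, too few to read calls from.

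From day 6 of exposure to day 6 posttreatment, 13 of the 82 genes were lower and 1, KRT4, was higher within IL-1β cells, where 0.652% of all genes were called lower and 0.292% higher. Lower were DEFB1 (-3.71), F5 (-3.56), MYCN (-3.15), PPARGC1A (-3.12), HGD (-2.80), SHROOM3 (-2.21), NKD1 (-1.95), RNF43 (-1.54) and BMP4 (-1.30), and KRT4 changed by 2.78. The 4 others were TAFA5, CPLX2, MUC5B and SLAIN1. The 13 lower genes also had log2 fold changes below 0 between the same collections in untreated cells, from -3.25 for F5 to -0.37 for TAFA5. None of the 13 was called in the response difference. The count of 14 became 1 without replicate 1, 1 without replicate 2, 29 without replicate 3 and 1 in a fit of these 6 libraries alone.

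Some genes that accompany a mesenchymal state were higher at the same collections. On the list of 18 tested epithelial-to-mesenchymal transition factors and mesenchymal genes, which held none of the 82, 0 were lower at either collection and 4 and 5 were higher (medians 0.36 and 0.36). SNAI2, a repressor that binds the E-box, was higher at day 6 posttreatment (2.86), and ZEB2 at both (1.36 and 1.43). On the list of 20 tested myosin, actin and membrane linkers, which held IQGAP2, 4 were lower at day 6 of exposure and 3 at day 6 posttreatment, and 0 were higher (medians -0.61 and -0.19).

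Of the 82 genes, 37 belong to no list and rank at neither end of the measures used to choose names, and those given values here were chosen after these were seen. At each of the tested collections 27 of the 37 were called lower, 22 of them at both, with log2 fold changes from -3.83 to -0.80 at day 6 of exposure and from -3.14 to -0.94 at day 6 posttreatment. They included FXYD2, a regulator of the sodium pump (-3.59 and -2.38), SLC7A7, an amino acid exchanger (-1.89 and -2.45), and UPK1B, a uroplakin of the urothelial surface (-2.15 and -2.88). DDC, which makes dopamine and serotonin (-1.83 and -2.36), IGFBP3, a secreted binder of insulin-like growth factors (-1.29 and -1.50), and PCDH9, a protocadherin (-1.38 and -1.38), were also called at both.

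CPLX2, already named for its partial return, was called at both (-2.09 and -3.14), as was VAV3 (-2.46 and -2.72). MTUS1, a microtubule-associated protein, and the noncoding RNA gene ENSG00000253671, 7267 bases away on GRCh37 and on the opposite strand, were called at both (MTUS1 -1.80 and -2.35, ENSG00000253671 -2.09 and -2.77). GLDC, which cleaves glycine, had an adjusted p of 0.00159 by edgeR at day 6 of exposure with a log2 fold change just inside the limit (-0.98) and was called at day 6 posttreatment (-1.34). ARRB1, an adaptor of G protein-coupled receptors, was called at neither (-1.31 and -1.02), and 23.6% of its exon bases overlap another gene on the same strand.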

How the data were processed

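RNA of 36 A549 cultures was sequenced by the authors on stranded mRNA libraries. The deposited values are whole-number read counts per Ensembl gene, 1 table a library, that the authors did not normalize. The submitters' processing notes name bcl2fastq 2.17, TopHat2 2.0.14, Bowtie2 2.2.5, HTSeq 0.6.1 and the build GRCh37, while the annotation release and the strand setting of the counting are not given in the sources used here. Reads on no gene (8.48% to 18.6%) and ambiguous reads (2.62% to 4.18%) were left out. Symbols and GRCh37 positions came from GENCODE v44lift37 by Ensembl identifier (55665 of 63677 matched), and promoters from a RefSeq table on GRCh38.p14 by symbol.

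CPM used the total count on genes. For tests, genes passing edgeR's filterByExpr (19180) were scaled by TMM, and a quasi-likelihood model with the 12 groups as terms was fitted to all 36 libraries in edgeR 4.0.16 under R 4.3.3, with Benjamini-Hochberg adjustment. The comparisons were IL-1β against untreated cells at day 6 of exposure and at day 6 posttreatment, their difference, and the later against the earlier of these collections within untreated and within IL-1β cells. Scripts were tested on simulated counts. Results for 1 of the 82 genes are not reported here, although it is part of all counts. Replicates are lettered in the sample titles and numbered in the descriptions, which call them biological. Counting precision follows the depth of 9116032 to 23570026 counts, and low genes carry wide errors.

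The genes and the lists were chosen with earlier results of these data known, so that they support nothing on their own. Genes named were the members of a list, the 12 with the lowest d at day 30 posttreatment, the 8 with the largest called decrease at day 6 posttreatment that were lower in all 3 same-numbered pairs, 3 on either side of the limits, the 3 with the highest fold change at day 6 of exposure, up to 5 called in each direction in the response difference and between untreated cells, and the 3 most even over time. Alternatives were other scaling, filters, DESeq2 1.42.0, a fit of the compared libraries alone, the replicate number as a block and leaving out each replicate. The fits without the 11 libraries of high mitochondrial share, or with that share as a covariate, were added after the data were seen.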

Additional observations from a re-analysis of the deposited data

Results flagged for a closer look

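The response of KRT4 differed between the 2 collections whose d the rule did not use. Its log2 fold change was -6.02 (SE 0.61) at day 6 of exposure and -2.26 (SE 0.50) at day 6 posttreatment, and the test of the difference gave 3.76 (SE 0.75, adjusted p = 0.0157 by edgeR, Benjamini-Hochberg adjusted). All 3 IL-1β libraries lay below all 3 untreated libraries at both collections. KRT4 was the only one of the 82 genes called in this comparison, with 12 at an unadjusted p under 0.05, and DESeq2's Wald test called 2 of the 82. None of the 82 was called in it without replicate 1, without replicate 2 or with total counts only. The fit without the 11 libraries of high mitochondrial share cannot decide it, with 1 untreated library at day 6 posttreatment. Requiring at least 10 counts in every sample removed KRT4, so that setting could not test its call.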

How the results depend on the processing

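All 82 log2 fold changes stayed below 0 at day 6 of exposure and at day 6 posttreatment in every alternative that kept all 82 in the fit. No log2 fold change of the 45 named genes changed direction in any. The counts of calls below are given without the share of all tested genes called in each fit. Requiring at least 10 counts in every sample left 45 of the 82, of which 34 and 35 were called lower (62 and 63 of 82 before). Among them 0 were called in the response difference, 0 between untreated groups and 6 between IL-1β groups. This filter removed KRT4 and F5, the genes called in the response difference and between untreated groups, and could not test those calls. The fit of the compared libraries alone called 64 at day 6 of exposure but 1 at day 6 posttreatment and 1 between IL-1β groups (62, 63 and 14 before), and the cause was not tested. Total counts only gave 0 for the response difference and 9 between IL-1β groups. DESeq2's Wald test called 2 and, between untreated groups, 3.

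Leaving out 1 replicate gave 26 to 54 calls for day 6 of exposure, 11 to 61 for day 6 posttreatment, 0 to 2 for the response difference, 0 to 13 between untreated groups and 1 to 29 between IL-1β groups. The lowest counts came without replicate 1, or, in the last 3 comparisons, equally without replicate 2, and the highest without replicate 3, with 41 at day 6 posttreatment without replicate 2. With high mitochondrial share as a covariate 3 were called in the response difference and 2 between untreated groups. The fit without the 11 libraries left 1 untreated library at day 6 posttreatment and cannot decide these 2 comparisons.

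Same-numbered replicates deviated together in 14 of 18 pairs (correlation over 0.1, range -0.34 to 0.72), short of every pair, and the labels name no shared batch, so the main fit has no block. With the replicate block 63 and 73 of the 82 were called at the tested collections (61 and 63 of them also without it), 2 in the response difference, 2 between untreated groups and 18 between IL-1β groups.

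Chosen by the same rule under other settings, the genes numbered 61 to 88 with 1 replicate left out, 103 with TMM-scaled library sizes (79 shared with the 82), 70 with log2(CPM + 1) and 101 with log2(CPM + 0.1), 71 to 86 with another minimum CPM or none, and 121 without the 11 libraries (74 shared). Depth limits the lowest genes: F5 had 4 reads and PPARGC1A 6 over the 3 IL-1β libraries of day 6 posttreatment.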
